A study of Mus musculus with 32 samples.

Results

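The collagen genes other than Col4a1 and Col4a2 were examined in mouse embryonic stem cells (ESCs) across 11 cultures. They were chosen by symbol alone, as every gene in the count table whose symbol reads Col, a number, a and a number, without Col4a1 and Col4a2. This gave 42 of 51826 genes. Collagens are triple-helical proteins of the extracellular matrix and the cell surface. Their chains assemble in the endoplasmic reticulum as homotrimers or heterotrimers, so that a chain with no partner chain cannot form some of the family's molecules. The fibril-forming collagens build the fibers of connective tissue and cartilage, the FACIT collagens sit on those fibers, and network, multiplexin and membrane-spanning collagens serve basement membranes and cell surfaces. Early embryonic cells are known for a basement membrane built on laminins and the collagen IV pair left out here.

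RNA-seq counts were analyzed for 32 libraries, 3 per group except Etv5-KO at N16h, which had 2. RGd2 cells are ESCs with a destabilized GFP reporter at Rex1, and every group carries this reporter. RGd2 cells were sampled in 2i (the MEK inhibitor PD0325901 and the GSK3 inhibitor CHIR99021), after 5 passages in 2i (2i-p5), 16 h or 72 h after withdrawal of 2i into N2B27 medium (N16h, N72h), and after 2 passages with CHIR99021 alone (CHp2). Rbpj-KO and Etv5-KO cells lack a transcriptional effector of Notch signaling or an ETS-family transcription factor, and were sampled in 2i and at N16h. ER-dKO cells carry knockouts of both and were kept with CHIR99021 alone for 5 passages (CHp5). ETR-tKO cells also lack Tcf3 (gene name Tcf7l1) and were kept in N2B27 without inhibitors for 5 passages (Np5). By the study's methods, lines were routinely grown with CHIR99021 and LIF and moved to 2i shortly before an assay. The 2i and 2i-p5 groups may therefore differ in earlier culture as well as in passage. Mutants were made with pairs of Cas9 guides to different exons, and the libraries of each mutant group are separate clonal lines, with Rbpj-KO lines c28, c33 and c36 and Etv5-KO lines c1 and c17 sampled both in 2i and at N16h. In every RGd2 group 2 libraries came from the parental line and 1 from a clonal derivative, so the spread within RGd2 groups includes 2 libraries of the same line.

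Library totals ran from 5986857 to 71439411 counts on genes, with the clonal RGd2 library in 2i the shallowest. Mean Rbpj FPKM (fragments per kilobase of gene, scaled to the library total and computed here from the counts) was 12.4 in RGd2 and 3.16 in Rbpj-KO cells in 2i, and mean Etv5 FPKM was 135 against 21.6 in Etv5-KO cells. In ER-dKO cells Etv5 ran from 12.7 to 17.4 FPKM and Rbpj from 3.25 to 9.88, where replicate 12 had the highest value, within the Rbpj range of RGd2 in 2i-p5 (from 9.80). In ETR-tKO cells Rbpj ran from 4.85 to 6.67 FPKM, Etv5 from 9.76 to 24.6 and Tcf7l1 from 0.294 to 1.10. Counts per gene do not show whether the targeted exons are missing. All 8 ESC markers examined were at 1 FPKM or more in 10 of the 11 groups, and 7 of them at N72h. Their sum was nevertheless lower at N72h (594 to 626 FPKM) and in CHp2 (704 to 725) than elsewhere (1049 to 1564). The study describes N72h and CHp2 cells as having left the ESC state. The 8 fibroblast markers summed to 6.96 to 7.82 FPKM at N72h and to between 0.908 and 2.68 elsewhere. At N72h most of this was Thy1 (5.78, against 0.781 in 2i-p5), Dcn was 0.419 and Fbln2 0.299, Pdgfrb lay between 0.446 and 1.37 in all groups, and the other 4 (Lum, Postn, S100a4 and Twist2) were under 0.1 in each group. Summed FPKM of 12 primitive and parietal endoderm markers, which include Col4a1 and Col4a2, ran from 101 to 221 at N72h, from 84.2 to 172 in Rbpj-KO cells in 2i and from 67.0 to 205 in Rbpj-KO cells at N16h, against 42.0 to 59.1 in RGd2 at N16h. The 8 mesoderm and primitive streak markers summed to 70.4 to 74.1 FPKM in CHp2 cells and to at most 16.5 elsewhere. Nearly all of the CHp2 sum was T (69.1), and only 2 of the 8 were at 1 FPKM there. The others were low and mixed in direction, such as Eomes (1.91 against 2.64 in 2i-p5), Gsc (0.055 against 0.565) and Mixl1 (0.557 against 0.345). Neural markers summed to 44.3 to 50.3 FPKM at N72h and to at most 21.4 elsewhere. At N72h this was nearly all Nes (45.9), with Sox1 at 0.410 and Pax6 at 0.118. These marker levels move with the culture, and their part in the collagen results was not tested. In such bulk libraries fewer expressing cells and less RNA per cell cannot be told apart.

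Most of the 42 genes were close to silent. The group mean reached 1 FPKM in at least 1 group for 9 genes (Col18a1, Col9a2, Col5a1, Col13a1, Col6a5, Col8a2, Col2a1, Col9a3 and Col4a5), stayed between 0.1 and 1 for 19, and never reached 0.1 for 14. Those 14 were the fibril-forming Col1a1 and Col3a1, the FACIT chains Col9a1, Col12a1 and Col19a1, the collagen VI chains Col6a1, Col6a3 and Col6a6, the collagen IV chains Col4a3 and Col4a4, and Col8a1, Col10a1, Col15a1 and Col28a1. Between 3 and 6 of the 42 genes were at 1 FPKM or more in any given group. For testing, 34 of the 42 passed the filter on low counts. Col3a1, Col4a3, Col4a4, Col8a1, Col10a1, Col15a1, Col19a1 and Col28a1 did not. A gene that passed only through the group where it was high had to differ, so counts over the 34 describe those genes and not the whole family.

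Differences are given as log2 fold changes of counts scaled by ERCC spike-ins, each with its standard error (SE). The test was edgeR's quasi-likelihood F test, and p-values were adjusted over the 19037 genes tested (Benjamini-Hochberg). A gene is called where the adjusted p is under 0.05 and the mean FPKM of either group is at least 1. FPKM is relative to the library total and the fold change to the spike-ins, so a gene can rise on one scale and not on the other. The scaling shifts all genes. The median log2 fold change of all genes tested lay between -0.37 and 0.27 over the 12 comparisons between groups, and normalization by TMM, which centers the genes, moved it by between -0.24 and 0.35. None of the members past the adjusted p changed direction when set against the median of all genes of its comparison.

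The promoters of the 4 collagen genes called in Rbpj-KO cells at N16h are shown here, since Rbpj was the factor removed. RefSeq promoters (GRCm38.p6) were on hand for 33 of the 42 genes, 36 promoters in all, each covering 250 bases before to 50 after the annotated start. The 250 bases before the start are printed 5′ to 3′ on the gene's strand. Capitals mark TGGGAA, the core of the RBPJ motif, and CTTTGA, a TCF/LEF motif, or their reverse complements TTCCCA and TCAAAG. Col13a1 lies at chr10:61979109-61979358 (minus strand), Col9a2 at chr4:121039316-121039565 (plus strand) and Col6a5 at chr9:105960644-105960893 (minus strand). Col18a1 has 2 annotated starts, with the distal promoter at chr10:77166531-77166780 and the internal promoter at chr10:77113706-77113955 (both minus strand). In the Gencode M21 annotation Col9a2 starts 181 bases further upstream, so part of its printed stretch lies in the first exon of that model.
Col13a1: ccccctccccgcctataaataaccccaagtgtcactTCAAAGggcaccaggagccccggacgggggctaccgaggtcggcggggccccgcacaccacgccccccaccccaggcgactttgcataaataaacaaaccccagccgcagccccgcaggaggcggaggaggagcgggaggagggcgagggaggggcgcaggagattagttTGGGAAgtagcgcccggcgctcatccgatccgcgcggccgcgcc
Col9a2: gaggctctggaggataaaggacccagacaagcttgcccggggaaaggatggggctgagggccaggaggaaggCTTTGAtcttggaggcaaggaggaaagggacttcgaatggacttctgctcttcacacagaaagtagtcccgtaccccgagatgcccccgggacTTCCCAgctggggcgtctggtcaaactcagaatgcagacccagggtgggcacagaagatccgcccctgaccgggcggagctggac
Col18a1 internal: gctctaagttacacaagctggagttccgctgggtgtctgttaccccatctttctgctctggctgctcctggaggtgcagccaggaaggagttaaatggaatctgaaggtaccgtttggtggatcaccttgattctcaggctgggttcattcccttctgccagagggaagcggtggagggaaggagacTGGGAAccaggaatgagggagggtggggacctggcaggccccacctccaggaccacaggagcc
Col18a1 distal: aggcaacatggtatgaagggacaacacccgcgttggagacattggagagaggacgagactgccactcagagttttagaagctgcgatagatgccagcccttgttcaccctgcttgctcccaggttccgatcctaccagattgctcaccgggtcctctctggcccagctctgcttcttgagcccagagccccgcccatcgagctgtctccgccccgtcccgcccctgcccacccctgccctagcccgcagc
Col6a5: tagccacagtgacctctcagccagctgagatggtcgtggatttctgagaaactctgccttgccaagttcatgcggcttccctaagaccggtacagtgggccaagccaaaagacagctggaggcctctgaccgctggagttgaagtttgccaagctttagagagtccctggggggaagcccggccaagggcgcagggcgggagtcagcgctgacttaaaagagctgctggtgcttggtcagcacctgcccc

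TGGGAA was present in the Col13a1, Col9a2 and internal Col18a1 promoters, with its first base at -44, -85 and -63 from the start, and not in the printed Col6a5 window. The Col9a2 match lies downstream of the Gencode M21 start, which is 181 bases before the RefSeq start used here. Over both strands and 300 bases TGGGAA was in 12 of the 36 collagen promoters (33.3%) and in 25.6% of all 32851 promoters. CCGGAA, an ETS core, was in none of the 36 collagen promoters and in 14.9% of all promoters. CTTTGA was in 9 of 36 (25%) and in 16% of all promoters, and CTTTGT in 5 of 36 (13.9%) and in 18.7%. Promoters of the family had a median GC content of 59.3%, against 52.7% for all promoters. A match of 6 letters is a description and marks no bound site.

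Col18a1, on the minus strand of chromosome 10 (77052178 to 77166548), was by far the most abundant member. It encodes a multiplexin, the basement membrane heparan sulfate proteoglycan whose C-terminal fragment is endostatin. It held a mean of between 79.6% and 89.5% of the summed collagen FPKM in each group. In RGd2 cells its FPKM was 58.9, 53.2 and 72.3 in 2i, 78.1, 76.3 and 72.3 in 2i-p5, and 81.8, 77.6 and 69.8 at N16h. It was 105, 105 and 103 at N72h and 108, 111 and 96.1 in CHp2. All 6 libraries of these last 2 groups lay above all 9 libraries of the other 3.

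Col18a1 rose at N72h (log2 fold change 0.52, SE 0.11) and in CHp2 (0.61, SE 0.11) against 2i-p5. At N16h it was 0.12 (SE 0.11) from 2i, which did not pass with spike-in scaling but was called under TMM (0.29) and under size factors on genes (0.32). Between 2i-p5 and 2i the difference was 0.006 with spike-in scaling. Here too it was called under TMM (0.33) and under size factors on genes (0.32), higher in 2i-p5. Col18a1 was also higher in the mutants. In Rbpj-KO cells its FPKM was 90.6, 76.8 and 79.3 in 2i and 90.2, 87.0 and 89.4 at N16h. In Etv5-KO cells it was 85.8, 84.2 and 82.2 in 2i and 98.6 and 99.2 at N16h. The highest levels were in ER-dKO cells (114, 109 and 107) and in ETR-tKO cells (119.9, 131 and 124), with no overlap with any RGd2 library in the case of ETR-tKO.

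Against RGd2 in the same culture, Col18a1 rose by 0.38 (SE 0.11) in Rbpj-KO and 0.31 (SE 0.11) in Etv5-KO cells in 2i, and by 0.33 (SE 0.11) and 0.57 (SE 0.12) at N16h. It rose by 0.80 (SE 0.11) in ER-dKO and 0.96 (SE 0.11) in ETR-tKO cells against 2i-p5, and by 0.45 (SE 0.11) in ETR-tKO cells against N72h. The ER-dKO and CHp2 levels did not differ beyond the test (0.19, SE 0.11, edgeR adjusted p = 0.165). The small differences in the single mutants rest on few libraries. In 2i the Rbpj-KO call was lost without RGd2 replicate 32 (0.28) or Rbpj-KO replicate 28 (0.28), and the Etv5-KO call without RGd2 replicate 32 (0.21), Etv5-KO replicate 25 (0.26) or 26 (0.30). Both were lost in fits to only the libraries compared (0.38 and 0.31). At N16h the Rbpj-KO call was lost without RGd2 replicate 23 (0.34) or 24 (0.24) or Rbpj-KO replicate 19 (0.33) or 21 (0.29), and under TMM (0.18). The Etv5-KO call at N16h and those of ER-dKO and ETR-tKO cells held without any 1 library.

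**Figure D1:**
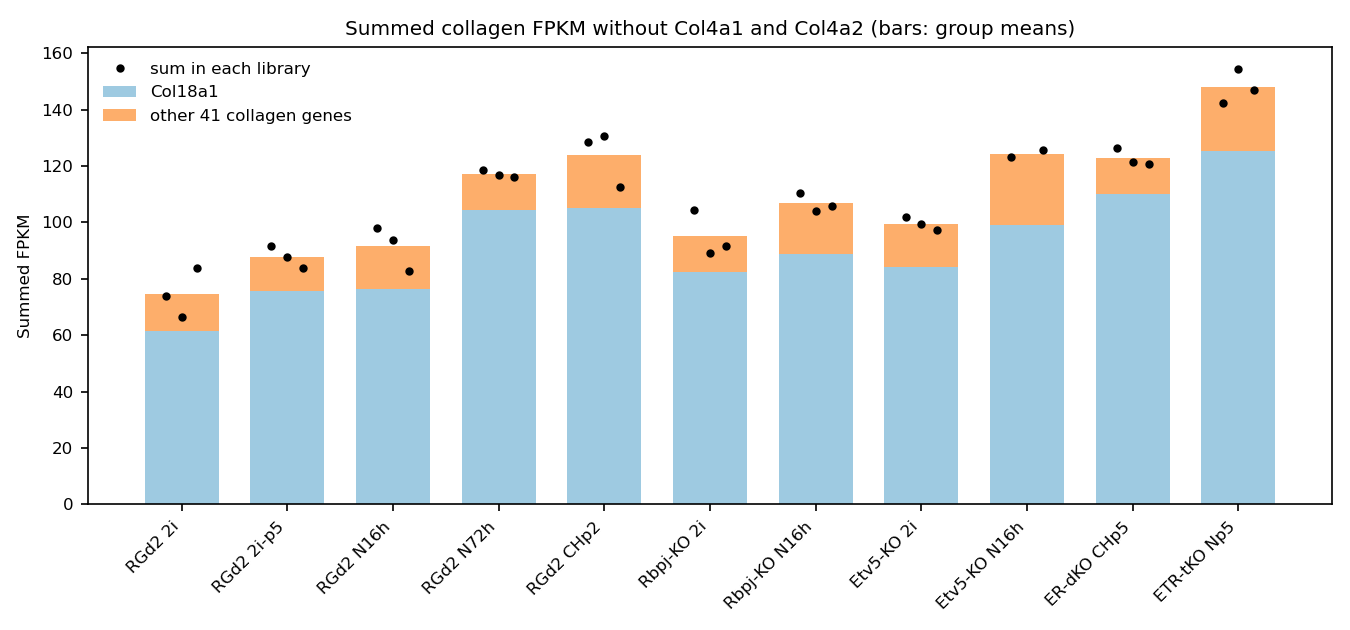
Summed FPKM of the 42 collagen genes in each group; bars are group means split into Col18a1 and the other 41 genes, and points are libraries. Col18a1 takes between 79.6% and 89.5% of the sum, and the part above it is largest in Etv5-KO at N16h (25.4) and ETR-tKO (22.8).

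Without Col18a1, the other 41 genes summed to between 12.2 and 25.4 FPKM. RGd2 cells had 13.2 ± 1.68 (SD, n = 3) in 2i, 15.1 ± 1.77 at N16h, 12.8 ± 0.48 at N72h and 18.8 ± 2.15 in CHp2. Rbpj-KO cells had 12.9 ± 0.74 in 2i and 17.9 ± 1.88 at N16h. Etv5-KO cells went from 15.5 ± 0.53 in 2i to 25.4 ± 1.39 (n = 2) at N16h. ER-dKO cells had 12.8 ± 0.37 and ETR-tKO cells 22.8 ± 0.35. The sums in Etv5-KO at N16h and in ETR-tKO cells were made up mostly of Col9a2 and Col5a1. The reference pair left out behaved otherwise: Col4a1 FPKM was 45.3 in the clonal RGd2 library at N72h against 15.8 and 16.8 in the parental libraries, and 50.4 in Rbpj-KO line c36 at N16h against 9.83 and 12.5 in the other lines, while Col18a1 was 103 there against 105 and 105, and 89.4 against 90.2 and 87.0.

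**Figure D2:**
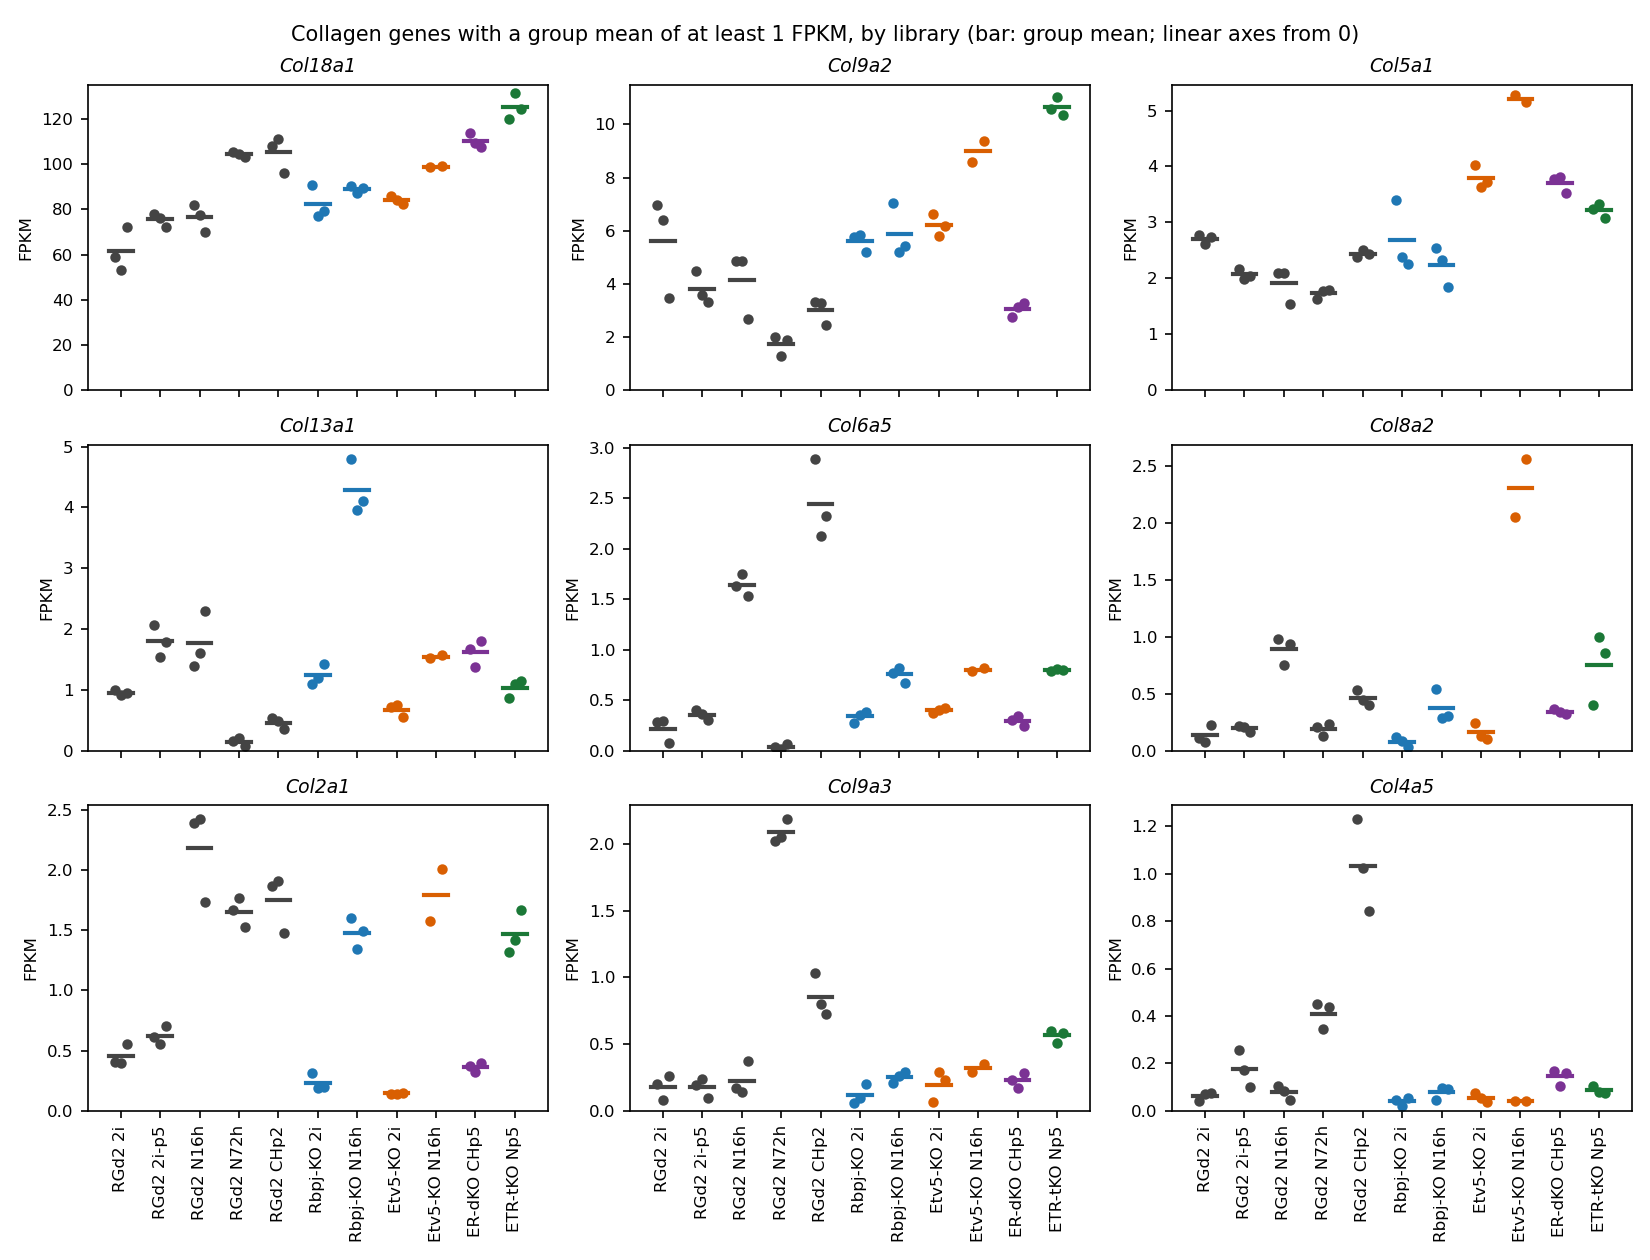
FPKM of the 9 collagen genes with a group mean of at least 1 in any group; each point is a library, each bar a group mean, colored by genotype, on linear axes that start at 0. Col13a1 is highest in Rbpj-KO at N16h (mean 4.28), Col6a5 in CHp2 (2.44) and Col9a2 in ETR-tKO (10.7).

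Among the fibril-forming collagens, Col5a1 was the most abundant. It encodes a chain of collagen V, which nucleates and limits the width of collagen I fibrils, and lies on the plus strand of chromosome 2 (27886425 to 28039514). Its FPKM in RGd2 cells was 2.77, 2.62 and 2.73 in 2i, 2.18, 1.99 and 2.04 in 2i-p5, and 2.10, 2.10 and 1.54 at N16h. It was 1.63, 1.77 and 1.80 at N72h and 2.39, 2.5 and 2.43 in CHp2. The 2i libraries lay above all other RGd2 libraries. Col5a1 fell by 0.72 (SE 0.14) from 2i to N16h and by 0.72 (SE 0.15) from 2i to 2i-p5.

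In Etv5-KO cells Col5a1 did the opposite on withdrawal of 2i. Its FPKM was 4.03, 3.64 and 3.72 in 2i and 5.28 and 5.1 at N16h, above every RGd2 library. At N16h it was higher than in RGd2 by 1.64 (SE 0.15, edgeR adjusted p = 8.17e-11). In 2i the FPKM values did not overlap those of RGd2, but the spike-in-scaled counts did (912, 793 and 754 against 779, 613 and 561). The difference of 0.31 (SE 0.14) missed the threshold with spike-in scaling. It was called under TMM (0.53), under size factors on genes (0.52) and without RGd2 2i replicate 31 (0.47). In Rbpj-KO cells it was 3.40, 2.38 and 2.26 in 2i and 2.54, 2.32 and 1.84 at N16h, overlapping RGd2 in both. In FPKM, ER-dKO (3.77, 3.82 and 3.52) and ETR-tKO cells (3.25, 3.34 and 3.08) lay above all RGd2 libraries. In spike-in-scaled counts ETR-tKO cells (696, 787 and 720) overlapped RGd2 in 2i. Against 2i-p5 the log2 fold changes were 1.09 (SE 0.15) in ER-dKO and 0.87 (SE 0.15) in ETR-tKO cells. They were 0.73 (SE 0.14) for ER-dKO against CHp2 and 1.07 (SE 0.14) for ETR-tKO against N72h.

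Col5a2 encodes the other chain of the common collagen V heterotrimer, and it moved with Col5a1 in some comparisons and against it in others. Like Col5a1 it fell from 2i to N16h (by 1.31 on the log2 scale, SE 0.31) and from 2i to 2i-p5 (by 1.73, SE 0.35). Its group means ran from 0.0374 to 0.508 FPKM, so it met the FPKM minimum nowhere, but it passed the adjusted p in 11 of the 14 comparisons, the most of any member. Its FPKM was 0.225, 0.114 and 0.0563 in 2i-p5 and 0.509, 0.572 and 0.442 at N72h, with no overlap (2.14, SE 0.34). It was 0.0459, 0.0438 and 0.0274 in ER-dKO cells, where it differed from 2i-p5 by -1.31 (SE 0.39) while Col5a1 rose, although without 2i-p5 replicate 1 this was -0.85 and missed the threshold. In ETR-tKO cells it was 0.0577, 0.0363 and 0.018, down by 3.54 (SE 0.35) against N72h, again with Col5a1 up. Col5a3, a chain found in another form of collagen V, averaged under 0.1 FPKM in RGd2 in 2i and 2i-p5 and reached 0.492 at N72h, 0.348 in CHp2, 0.352 in Etv5-KO at N16h and 0.296 in ETR-tKO cells. It rose in those groups by 2.95 (SE 0.34), 2.54 (SE 0.36), 1.75 (SE 0.31) and 2.41 (SE 0.35) against their references.

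Col2a1, the collagen of cartilage and the notochord, was low in every culture with 2i and higher once both inhibitors or the MEK inhibitor had been taken away from RGd2 cells. It lies on the minus strand of chromosome 15 (97975602 to 98004695). Its FPKM in RGd2 was 0.409, 0.397 and 0.557 in 2i, 0.612, 0.556 and 0.705 in 2i-p5, and 2.39, 2.43 and 1.73 at N16h. It was 1.67, 1.77 and 1.53 at N72h and 1.87, 1.91 and 1.48 in CHp2, so that the 6 libraries with 2i lay below the 9 without. The rise was 2.10 (SE 0.20) at N16h, 1.44 (SE 0.20) at N72h and 1.61 (SE 0.20) in CHp2.

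In the single mutants in 2i Col2a1 was lower still. It was 0.311, 0.192 and 0.196 FPKM in Rbpj-KO cells, which differed from RGd2 by -1.05 (SE 0.24), and 0.140, 0.143 and 0.149 in Etv5-KO cells, which differed by -1.77 (SE 0.24). Both passed the adjusted p at levels under 1 FPKM, the first not in a fit to only the libraries compared (-1.02). At N16h it was 1.60, 1.34 and 1.49 in Rbpj-KO and 1.57 and 2.01 in Etv5-KO cells, with differences of -0.46 (SE 0.18) and -0.08 (SE 0.19) that did not pass. The Rbpj-KO difference was called under TMM (-0.60) and under size factors on genes (-0.61). It was also called in a fit to only the libraries compared (-0.46) and without RGd2 N16h replicate 24 (-0.61). ER-dKO cells stayed low (0.370, 0.320 and 0.399) although they grew without the MEK inhibitor, and fell by 2.16 (SE 0.19) against CHp2. ETR-tKO cells (1.32, 1.42 and 1.67) were near N72h (0.02, SE 0.18) and above 2i-p5 by 1.46 (SE 0.20).

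The remaining fibril-forming genes had group means of at most 0.735 FPKM. Col11a1, a chain of the cartilage collagen XI, reached that mean in Etv5-KO cells in 2i, above RGd2 by 1.13 (SE 0.26), and was above RGd2 by 1.47 (SE 0.30) at N16h. Col27a1, another cartilage collagen, fell from 0.369, 0.326 and 0.257 FPKM in 2i to 0.111, 0.0724 and 0.0864 at N16h (a fall by 2.13 on the log2 scale, SE 0.28) and was highest in CHp2 at 0.756, 0.739 and 0.680. Col1a2, a chain of collagen I, was 0.0104 FPKM in 2i-p5, 0.098 at N72h and 0.116 in CHp2, and rose by 3.16 (SE 0.75) and 3.48 (SE 0.75). Its partner Col1a1 stayed at or under 0.0766 FPKM, and Col3a1 at or under 0.0079.

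Of the FACIT collagens, Col9a2 was the most abundant and moved in opposite directions in RGd2 and ETR-tKO cells. It encodes a chain of collagen IX, which coats collagen II fibrils in cartilage and forms a heterotrimer of the products of Col9a1, Col9a2 and Col9a3. In RGd2 cells its FPKM was 6.99, 6.42 and 3.45 in 2i, 4.50, 3.57 and 3.30 in 2i-p5, and 4.86, 4.87 and 2.69 at N16h. It was 2.00, 1.29 and 1.89 at N72h and 3.31, 3.29 and 2.46 in CHp2. The clonal RGd2 library, given last in each group, was the lowest in 4 of these 5 groups.

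Col9a2 fell by 1.05 (SE 0.23) at N72h against 2i-p5, by 1.01 (SE 0.21) in 2i-p5 against 2i and by 0.75 (SE 0.20) at N16h, the last 2 with overlapping libraries. Without RGd2 2i replicate 31 the N16h value was -0.45 and was no longer called, and in a fit to only the RGd2 libraries compared it was -0.72 and missed the threshold (edgeR adjusted p = 0.0554). In Etv5-KO cells Col9a2 was 6.64, 5.79 and 6.16 FPKM in 2i and 8.60 and 9.38 at N16h, above RGd2 by 1.30 (SE 0.22) at N16h. In Rbpj-KO cells it was 5.77, 5.84 and 5.2 in 2i and 7.05, 5.19 and 5.41 at N16h, above RGd2 by 0.60 (SE 0.20) at N16h. That call was lost under TMM (0.46) and without RGd2 replicate 24 (0.36), Rbpj-KO replicate 19 (0.47) or 21 (0.62).

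ETR-tKO cells had the highest Col9a2 of all groups, at 10.6, 11 and 10.4 FPKM, against 2.74, 3.14 and 3.29 in ER-dKO cells. This was above 2i-p5 by 1.74 (SE 0.21) and above N72h by 2.79 (SE 0.22, edgeR adjusted p = 4.87e-14), with no overlap in either comparison. Col9a3 moved with Col9a2 in one of these comparisons and against it in the others. It was 0.196, 0.241 and 0.0935 FPKM in 2i-p5, 2.03, 2.06 and 2.19 at N72h and 1.03, 0.801 and 0.726 in CHp2. Thus it rose by 3.64 (SE 0.42) at N72h, where Col9a2 fell. It was 0.600, 0.512 and 0.584 in ETR-tKO cells, above 2i-p5 by 1.94 (SE 0.43) like Col9a2 but lower than at N72h by 1.70 on the log2 scale (SE 0.34), and at most 0.371 in the libraries of each other group. Col9a1, the chain needed for the full heterotrimer, never exceeded a group mean of 0.077 FPKM.

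The other FACIT genes were all under 1 FPKM. Col20a1 was lowest at N72h (0.111, 0.104 and 0.159 FPKM) and highest in ETR-tKO cells (0.855, 0.886 and 0.874), a difference of 2.92 (SE 0.31). It was above RGd2 at N16h by 1.22 (SE 0.32) in Rbpj-KO and 1.99 (SE 0.32) in Etv5-KO cells. Col22a1, a collagen of muscle and tendon junctions, was lower in Rbpj-KO cells in 2i (-1.55, SE 0.41) and at N16h (-1.35, SE 0.40), in Etv5-KO cells in 2i (-1.43, SE 0.38) and in ER-dKO cells against 2i-p5 (-1.83, SE 0.36). In Etv5-KO cells the libraries overlapped those of RGd2. Both 2i differences rest on RGd2 2i replicate 31, whose Col22a1 was 67.2 spike-in-scaled counts against 25.2 and 20.2 in the other RGd2 libraries. Without it they were -0.77 in Rbpj-KO and -0.66 in Etv5-KO cells and missed the threshold. The Rbpj-KO value in 2i also missed it without Rbpj-KO replicate 29 (-1.36) and in a fit to only the libraries compared (-1.52), and that at N16h without RGd2 replicate 22 (-1.20) or Rbpj-KO replicate 19 (-1.12) or 20 (-1.16).

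Collagen VI forms beaded filaments from chains encoded by Col6a1, Col6a2 and a variable chain, and Col6a4, Col6a5 and Col6a6 lie side by side on the minus strand of chromosome 9 with gaps of 27.9 and 28.8 kb. Col6a5 (105856078 to 105960643) showed the sharpest contrasts between cultures. In RGd2 cells its FPKM was 0.278, 0.291 and 0.071 in 2i, 0.402, 0.360 and 0.301 in 2i-p5 and 1.63, 1.75 and 1.53 at N16h. At N72h it was 0.0346, 0.0199 and 0.0628, and in CHp2 2.89, 2.12 and 2.33. No library of N16h, N72h or CHp2 overlapped those of its reference. It rose by 2.43 (SE 0.22) at N16h and by 2.94 (SE 0.23) in CHp2, and at N72h it differed from 2i-p5 by -2.92 (SE 0.32), at levels under 1 FPKM.

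In the mutants the rise of Col6a5 at N16h was smaller. Its FPKM was 0.278, 0.353 and 0.384 in 2i and 0.768, 0.823 and 0.672 at N16h in Rbpj-KO cells, and 0.375, 0.402 and 0.420 in 2i and 0.789 and 0.814 at N16h in Etv5-KO cells. All 5 mutant N16h libraries lay below the 3 RGd2 libraries. The differences were -1.01 (SE 0.20) and -0.83 (SE 0.22). The Etv5-KO call was lost without Etv5-KO replicate 17 (-0.74). ER-dKO cells, at 0.306, 0.342 and 0.239, fell by 2.91 (SE 0.21) against CHp2. ETR-tKO cells had 0.792, 0.810 and 0.800.

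The neighbors of Col6a5 differed from it. Col6a4 was 0.338, 0.224 and 0.183 FPKM at N16h and 0.262, 0.190 and 0.184 at N72h, so it was above 2i-p5 at N72h by 2.39 (SE 0.53) where Col6a5 was below. Col6a6 stayed at or under 0.0505 FPKM and passed the adjusted p in none of the 14 comparisons. Col6a2, a chain of the usual collagen VI trimer, was 0.0301 FPKM in 2i-p5, 0.230 at N72h and 0.355 in CHp2, and rose by 3.19 (SE 0.58) and 3.90 (SE 0.58), while Col6a1 stayed at or under 0.0903.

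Col13a1, which encodes a membrane-spanning collagen known at neuromuscular junctions, was the gene with the clearest excess in Rbpj-KO cells. It lies on the minus strand of chromosome 10 (61838236 to 61979108). Its FPKM in RGd2 cells was 0.991, 0.921 and 0.943 in 2i, 2.06, 1.53 and 1.79 in 2i-p5 and 1.39, 1.61 and 2.29 at N16h. It was 0.151, 0.203 and 0.0669 at N72h and 0.535, 0.481 and 0.354 in CHp2. The N72h libraries were the lowest of all, and neither N72h nor CHp2 overlapped 2i-p5.

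Col13a1 fell by 3.78 (SE 0.28, edgeR adjusted p = 8.96e-15) at N72h and by 1.83 (SE 0.25) in CHp2. Its rises at N16h (0.62, SE 0.21) and in 2i-p5 (0.55, SE 0.22) against 2i were small. The first lost its call without RGd2 2i replicate 32 (0.54) or N16h replicate 24 (0.42), and the second without 2i replicate 32 (0.47) or 33 (0.48) or 2i-p5 replicate 1 (0.49) or 3 (0.55). Both also missed the threshold in fits to only the libraries compared (0.63 and 0.57).

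In Rbpj-KO cells Col13a1 was 1.10, 1.19 and 1.42 FPKM in 2i and 4.80, 3.95 and 4.10 at N16h, the highest 3 of all 32 libraries. The difference from RGd2 was 0.29 (SE 0.22) in 2i, which did not pass, and 1.40 (SE 0.20, edgeR adjusted p = 7.42e-07) at N16h. Line c36, which had the high Col4a1, had the middle value of the 3. In Etv5-KO cells it was 0.710, 0.743 and 0.544 in 2i and 1.51 and 1.57 at N16h, within the RGd2 range at N16h (0.03, SE 0.22). ER-dKO cells had 1.67, 1.38 and 1.80, above CHp2 by 1.94 (SE 0.24; 1.84 without replicate 12, the library with the high Rbpj) and 0.11 (SE 0.20) from 2i-p5. ETR-tKO cells had 0.867, 1.09 and 1.14, above N72h by 3.23 (SE 0.28) and below 2i-p5 by 0.55 on the log2 scale (SE 0.21), with the latter call lost without 2i-p5 replicate 1 (-0.49) or 3 (-0.55) or ETR-tKO replicate 13 (-0.39). Without ETR-tKO replicate 15 the difference from N72h was 3.12, with both group means then under 1 FPKM.

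The other membrane-spanning genes were rarer. Col23a1 had a mean of 0.0084 FPKM in RGd2 at N16h and 0.0584 and 0.0457 in Rbpj-KO and Etv5-KO cells, above RGd2 by 2.58 (SE 0.72) and 2.31 (SE 0.75). The first missed the threshold without Rbpj-KO replicate 21 (1.81), and the second without RGd2 replicate 24 (1.94) or Etv5-KO replicate 17 (2.26) or 18 (2.37). Col25a1, known from neurons, was highest in CHp2 at 0.119, and Col17a1, a collagen of hemidesmosomes, in Etv5-KO at N16h at 0.493, above RGd2 by 1.17 (SE 0.32), a difference that missed the threshold without Etv5-KO replicate 18 (1.14).

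The network chains outside the pair Col4a1 and Col4a2 were led by Col8a2, a chain of the short-chain collagen VIII of the cornea. It was 0.108, 0.0741 and 0.223 FPKM in RGd2 in 2i and 0.984, 0.754 and 0.936 at N16h, a rise of 2.79 (SE 0.39) that ended just under 1 FPKM. In Etv5-KO cells it was 0.245, 0.132 and 0.0999 in 2i and 2.05 and 2.56 at N16h, above RGd2 at N16h by 1.59 (SE 0.31). In Rbpj-KO cells it was 0.543, 0.283 and 0.305 at N16h, below RGd2 (-1.11, SE 0.32), which missed the threshold without Rbpj-KO replicate 20 (-0.94) or 21 (-1.0). The mutants thus lay on either side of RGd2, with no overlap.

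Col4a5 and Col4a6 lie head to head on the X chromosome, 1.3 kb apart, and encode chains of the collagen IV networks of kidney, skin and smooth muscle basement membranes. Col4a5 was 0.257, 0.171 and 0.101 FPKM in 2i-p5, 0.450, 0.343 and 0.436 at N72h and 1.23, 1.03 and 0.844 in CHp2. Col4a6 was 0.0271, 0.0754 and 0.0395 in 2i-p5, 0.210, 0.297 and 0.190 at N72h and 0.548, 0.549 and 0.273 in CHp2. In CHp2 they rose by 2.77 (SE 0.36) and 3.31 (SE 0.59), and in ER-dKO cells they were lower than in CHp2 by 2.73 (SE 0.33) and 2.19 (SE 0.51) on the log2 scale. Without CHp2 replicate 4 the Col4a5 mean fell under 1 FPKM, with fold changes of 2.57 and -2.53. Col7a1, the anchoring fibril collagen of skin, reached 0.656 FPKM in ETR-tKO cells, 0.601 in CHp2 and 0.50 in Etv5-KO at N16h, from 0.172 in 2i-p5 and 0.125 in RGd2 at N16h, rising by 2.09 (SE 0.26), 1.88 (SE 0.27) and 2.20 (SE 0.27). Col26a1 was lower in ETR-tKO than in 2i-p5 (-1.22, SE 0.22) and higher in Etv5-KO than in RGd2 at N16h (1.21, SE 0.22).

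**Figure D3:**
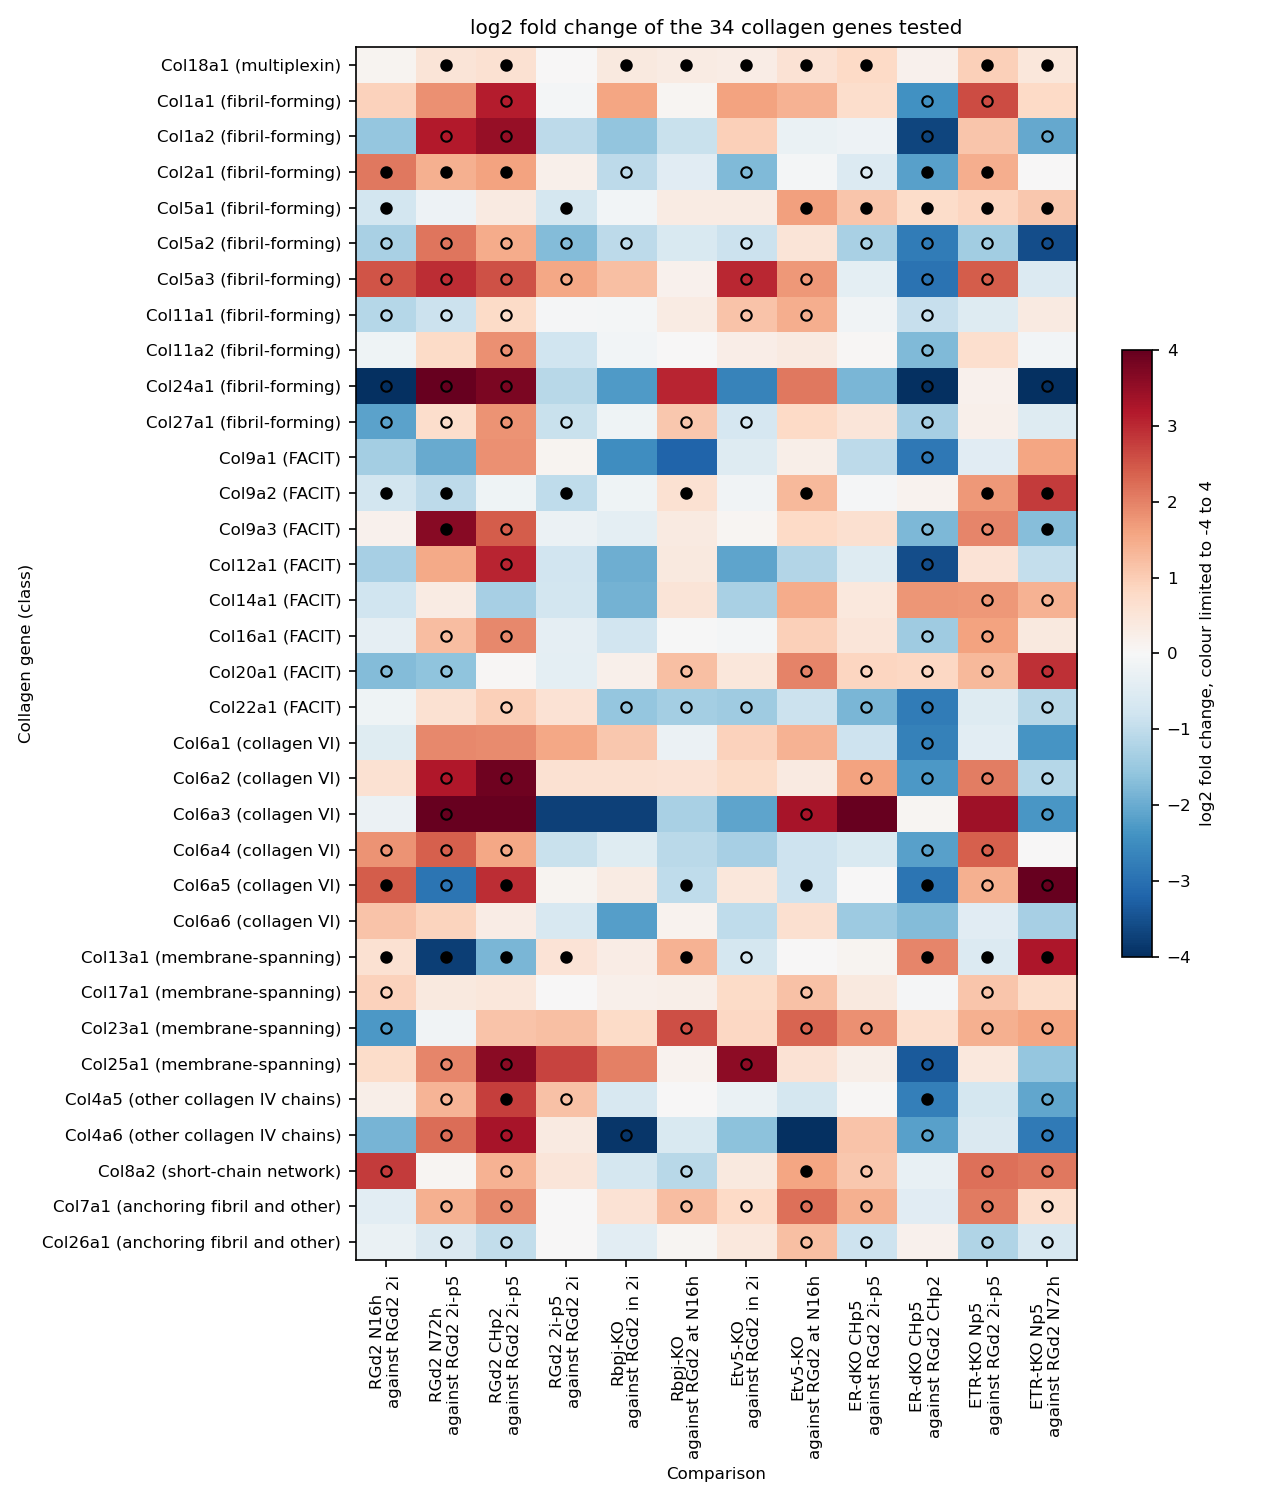
Log2 fold change (color, limited to -4 to 4) of the 34 collagen genes tested, by class, in 12 comparisons; filled circles mark genes called and open circles genes past the adjusted p with both group means under 1 FPKM. The CHp2 column holds 22 genes past the adjusted p that were higher and 2 that were lower, and the ER-dKO against CHp2 column 3 and 21.

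Counted over the family, members moved in both directions 16 h after exit from 2i. At N16h 5 of the 6 members at 1 FPKM were called against 2i, 3 higher (Col6a5, Col2a1 and Col13a1) and 2 lower (Col5a1 and Col9a2), where 45.9% of the 11758 genes at 1 FPKM were called. By the adjusted p alone 7 of the 34 were higher and 8 lower (37.2% of all genes). The median of the 34 was -0.26, beside -0.23 for all genes tested. The share of all calls that were higher was 18.8% here and 44.5% under TMM, so the background direction depends on the scaling. Between the pair of 2i cultures, 3 of 4 members at 1 FPKM were called, Col13a1 higher and Col5a1 and Col9a2 lower (52.2% of all genes at 1 FPKM). The median was -0.02 beside -0.37, and the share of all calls that were higher was 5.53% with spike-ins and 52.8% under TMM.

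At N72h and in CHp2 more of the low members were higher. At N72h 5 of 6 members at 1 FPKM were called against 2i-p5, Col9a3, Col2a1 and Col18a1 higher and Col13a1 and Col9a2 lower (57% of all genes at 1 FPKM). Without the FPKM minimum 16 were higher (30.3% of all genes) and 6 lower (19.5%), and the median of the 34 was 1.05 beside 0.12. In CHp2 5 of 7 were called, Col6a5, Col4a5, Col2a1 and Col18a1 higher and Col13a1 lower (42.1% of all genes at 1 FPKM). By the adjusted p alone 22 were higher (26.6% of all genes) and 2 lower (10.6%), the 2 being Col13a1 and Col26a1, with a median of 1.81 beside 0.17. With groups at or under 3 counts per library set to that floor the medians were 0.73 and 1.55. The share of all calls that were higher moved from 59.9% to 46.6% at N72h and from 67.9% to 43.3% in CHp2 under TMM. Both comparisons share the 2i-p5 libraries.

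ER-dKO cells did not show the CHp2 pattern. Against CHp2, 5 of 7 members at 1 FPKM were called (49.6% of all genes at 1 FPKM), Col13a1 and Col5a1 higher and Col6a5, Col4a5 and Col2a1 lower. At the adjusted p alone, 3 were higher (21.3% of all genes) and 21 lower (23.1%), with a median of -1.78 beside 0.02. The CHp2 libraries are the reference here and the treated group above, the cultures differ in passage, and 4 of the 24 genes had overlapping libraries. Without ER-dKO replicate 12, the library with the high Rbpj, 5 were called against CHp2 and 2 against 2i-p5. Against 2i-p5, 2 of 4 members at 1 FPKM were called, Col5a1 and Col18a1, both higher (42.2% of all genes at 1 FPKM), and the median was 0.08 beside 0.20. The share of all calls that were higher was 80.1% with spike-ins and 52.7% under TMM in that comparison.

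In ETR-tKO cells 5 of 5 members at 1 FPKM were called against 2i-p5 (47.1% of all genes at 1 FPKM), with Col9a2, Col2a1, Col18a1 and Col5a1 higher and Col13a1 lower. By the adjusted p alone 17 were higher (30.6% of all genes) and 3 lower (8.16%), with a median of 1.04 beside 0.27, or 0.95 with low groups at the floor. Against N72h 5 of 6 were called (59% of all genes at 1 FPKM), with Col13a1, Col9a2, Col5a1 and Col18a1 higher and Col9a3 lower. With no FPKM minimum, 10 were higher and 10 lower (50.7% of all genes), with a median of -0.05 beside 0.10. The share of all calls that were higher fell from 79.8% to 47.5% against 2i-p5 under TMM, and was 60.1% and 51.4% against N72h.

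Fewer members reached 1 FPKM in the single mutants in 2i than at N16h. In 2i Col18a1 was the called gene in both Rbpj-KO (1 of 4 members at 1 FPKM, where 11.3% of all genes at 1 FPKM were called) and Etv5-KO cells (1 of 3, and 33.8%). By the adjusted p alone 1 was higher (4.07% of all genes) and 4 lower (5.81%) in Rbpj-KO, and 5 were higher (5.32%) and 5 lower (22.5%) in Etv5-KO cells. At N16h 4 of 6 were called in Rbpj-KO cells (22.2% of all genes at 1 FPKM), Col13a1, Col9a2 and Col18a1 higher and Col6a5 lower. In Etv5-KO cells 5 of 7 were called (32.4%), Col5a1, Col8a2, Col9a2 and Col18a1 higher and Col6a5 lower. There, by the adjusted p alone, 7 were higher (14.4% of all genes) and 3 lower (3.34%) in Rbpj-KO, with a median of 0.15 beside 0.15. In Etv5-KO cells at N16h 12 were higher (22.3%) and 1 lower (3.14%), with a median of 0.79 beside 0.24. Both mutants are set against the same RGd2 libraries. The share of all calls that were higher moved under TMM from 84.6% to 57.8% in Rbpj-KO and from 90% to 57.5% in Etv5-KO cells at N16h, and from 46.1% to 59.1% and from 18% to 55.4% in 2i.

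**Figure D4:**
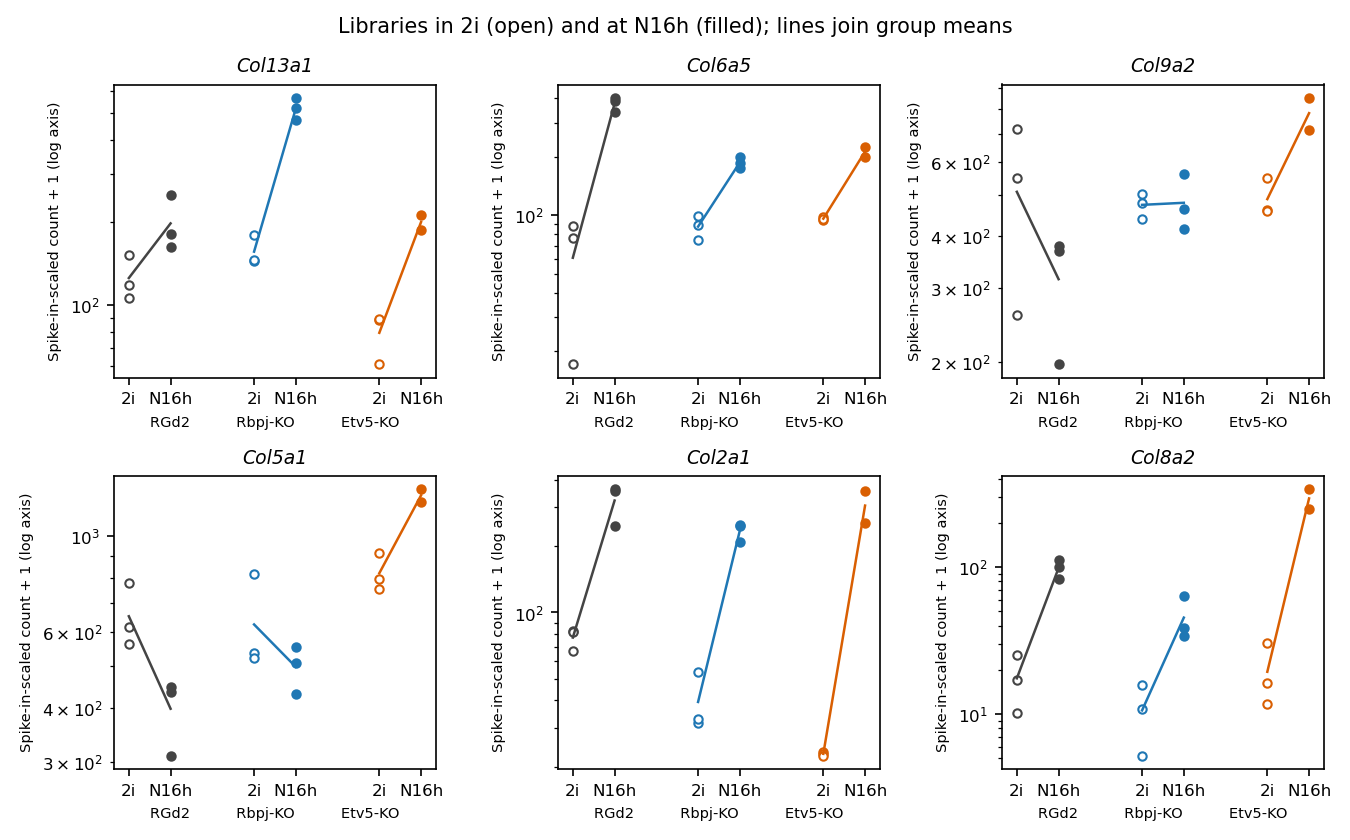
Spike-in-scaled counts plus 1 (log axis) of 6 collagen genes in 2i (open) and at N16h (filled) in RGd2, Rbpj-KO and Etv5-KO cells; points are libraries and lines join group means. Col5a1 and Col9a2 go down in RGd2 and up in Etv5-KO cells, Col13a1 rises most in Rbpj-KO cells, and Col6a5 ends lower in both mutants than in RGd2.

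Whether the 2i to N16h response itself differed between genotypes was tested as an interaction in the same fit. Against RGd2, the Rbpj-KO response differed for 2 of 6 members at 1 FPKM (4.01% of all genes at 1 FPKM), Col13a1 (1.11, SE 0.29) and Col6a5 (-1.35, SE 0.31). The Col13a1 interaction missed the threshold under TMM (0.88). It also missed it when a single library was left out, this being replicate 31 of RGd2 in 2i (0.93), replicate 22 (0.99) or 23 (1.05) of RGd2 at N16h, replicate 29 of Rbpj-KO in 2i (1.05), or replicate 19 (1.04) or 21 (1.11) of Rbpj-KO at N16h. The Col6a5 interaction missed it in a fit to the compared libraries alone (-1.36, edgeR adjusted p = 0.0569). The Etv5-KO response differed for 4 of 7 members (37.1%), Col2a1 (1.69, SE 0.30), Col9a2 (1.43, SE 0.30), Col5a1 (1.32, SE 0.21) and Col6a5 (-1.27, SE 0.32). The median of all genes in that interaction was 0.47, and set against it the 3 positive values were 1.22, 0.96 and 0.86. Every one of these kept its call under TMM. For Col2a1 the level in 2i was the one that differed between Etv5-KO and RGd2 cells, and the N16h levels overlapped.

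The enzymes and receptors of collagen biology were read alongside, as 47 genes in 7 roles of which 46 were tested. A call needed 1 FPKM here too, but the counts are out of all genes of a role, whatever their level. The shares beside them are over all genes at 1 FPKM. The bases differ, so the shares are a rough background only. Of 5 cross-linking lysyl oxidases, 3 were called higher in CHp2 (28.6% of all genes at 1 FPKM) and 2 at N72h (34.2%), among them Loxl4 (5.69, SE 0.68, from 0.0407 to 1.66 FPKM in CHp2) and Loxl1 (4.96, SE 0.47, from 0.0923 to 2.33 FPKM at N72h), and 3 were lower in ER-dKO than in CHp2 cells (21.3%). Of 12 prolyl and lysyl hydroxylases, 5 were higher and 2 lower in CHp2 (28.6% and 13.5% of all genes at 1 FPKM). The counts were the same at N72h (34.2% and 22.9%), though not necessarily for the same genes. P3h2, a prolyl 3-hydroxylase, led in both (5.38, SE 0.79, and 5.02, SE 0.79). At N16h 7 of the 12 were lower, where 37.3% of all genes at 1 FPKM were lower with spike-in scaling. Among 7 receptors, Itga1, the integrin chain that binds collagens at the cell surface, was 12.6 FPKM in ETR-tKO cells against 0.504 in 2i-p5 and 0.276 at N72h, higher by 4.84 (SE 0.18) and 5.71 (SE 0.19). The receptor kinase Ddr1 rose from 2.36 to 25.1 FPKM at N72h (3.46, SE 0.18). Over all roles, 15 genes were higher and 7 lower in CHp2, where 28.6% and 13.5% of all genes at 1 FPKM were. At N72h 12 were higher and 6 lower (34.2% and 22.9%), in ETR-tKO against 2i-p5 13 and 3 (37.6% and 9.52%), and in Etv5-KO at N16h 14 and 0 (29.2% and 3.24%).

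Some values carry limits from the annotation. Col1a2, Col3a1, Col4a3, Col4a5, Col4a6, Col5a2, Col6a3, Col7a1, Col19a1, Col20a1, Col24a1, Col26a1 and Col27a1 each overlap 1 other annotated gene on the same strand and Col25a1 overlaps 5, and reads in shared bases may have been left uncounted. Between 0 and 2 of the genes past the adjusted p in each comparison had a group at or under 3 counts in every library (Col24a1, Col6a3, Col1a1, Col25a1 and Col4a6), and no fold change of theirs against such a group is given. Labels give separate lines for the mutants, whereas the 2 parental RGd2 libraries of a group may differ only by culture or handling. The p-values rest on a spread estimated over all 32 libraries, mutant lines included, and not on the RGd2 libraries alone.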

How the data were processed

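Raw counts per gene and per ERCC spike-in were used as deposited by the authors. By the extraction protocol and the study's methods, total RNA was depleted of ribosomal RNA (the labels' molecule field names polyA RNA instead), made into strand-specific paired-end libraries, trimmed with Trim Galore, aligned by TopHat2 to a GRCm38/mm10 genome that also held the spike-ins, and counted per Gencode M14 gene with featureCounts (unique primary alignments, by strand), with no normalization after counting. Tool versions are not given in the sources used here. The deposited gene lengths served for FPKM. Symbols came from Ensembl gene IDs, of which 193 had none (0.0259% of counts).

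Counts of 19037 genes that passed filterByExpr were fitted in edgeR 4.0.16 (R 4.3.3, limma 3.58.1) over all 32 libraries with 1 coefficient per group, with median-of-ratios size factors from 52 spike-ins and the quasi-likelihood F test. SE is the absolute log2 fold change divided by the square root of F. Genes were called at an adjusted p under 0.05 and a mean of at least 1 FPKM in either group. With known changes planted in 200 genes of counts simulated for Rbpj-KO against RGd2 at N16h, 190 were recovered and 5 others called among 17359 tested. Every simulated gene had the same dispersion, and changes were planted only in genes above a minimum mean count. The recovery therefore does not speak for members with few counts or for unevenly spread replicates. Alternatives were TMM, size factors on genes, DESeq2 1.42.0, fits to the compared libraries only, no low-count filter, no FPKM minimum, the clonal line as a replicate block, and leaving out each library. Promoters were RefSeq's (GRCm38.p6). Figures were drawn with matplotlib 3.10.9.

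Named genes were members at a group mean of 1 FPKM or past the adjusted p in any comparison, with each library's value for those called in 3 or more, and pathway genes with the largest fold changes. The members and lists were chosen with earlier results of these data known. The study's methods give RGd2 at N16h 2 replicates where the labels give 3, and the labels were followed. Replicates differed by 3.25 to 39.7 chi-square units per gene, so none was a repeat deposit. The RGd2 clonal line pairs cultures, as do lines c28, c33, c36, c17 and c1; correlations of their deviations ran from 0.004 to 0.175.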

Additional observations from a re-analysis of the deposited data

Results flagged for a closer look

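The change from 2i to N16h differed between a mutant and RGd2 cells for 5 collagen genes, by the interaction term of edgeR's quasi-likelihood fit with Benjamini-Hochberg adjustment over all genes. For Col13a1 the Rbpj-KO response exceeded that of RGd2 by 1.11 on the log2 scale, a call that was lost under TMM (0.88) and without any of 6 libraries, with values from 0.93 to 1.11. For Col6a5 it was smaller, with a difference of -1.35. In Etv5-KO cells the Col6a5 response was also smaller, at -1.275. The Etv5-KO responses of Col2a1, Col9a2 and Col5a1 exceeded those of RGd2 by 1.686, 1.431 and 1.323. The interaction for all genes had a median of 0.22 in Rbpj-KO and 0.47 in Etv5-KO cells. No cause was tested. Each comparison shares the RGd2 libraries with the other.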

How the results depend on the processing

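No collagen gene named with a test reversed a called direction under any alternative. The counts of collagen genes called changed most when the FPKM minimum was dropped. Against their RGd2 references they were then 15 at N16h, 22 at N72h, 24 in CHp2, 7 in 2i-p5, 5 and 10 in Rbpj-KO cells in 2i and at N16h, 10 and 13 in Etv5-KO cells, 11 and 24 in ER-dKO cells against 2i-p5 and CHp2, and 20 in ETR-tKO cells against either reference, and 11 for the Etv5-KO response. Under TMM and under size factors on genes, 2 genes were called in Etv5-KO cells in 2i and 1 for the Rbpj-KO response. In edgeR fits to only the libraries compared, 3 were called at N16h, 1 for the Rbpj-KO response, and 0 in Rbpj-KO or Etv5-KO cells in 2i, where 0 genes at 1 FPKM also had an unadjusted p under 0.05, while DESeq2 on all libraries called 1 in each. The cause of these shifts was not tested.

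Leaving out 1 library gave 0 to 1 calls in Rbpj-KO cells in 2i, 2 to 4 at N16h, 0 to 2 in Etv5-KO cells in 2i and 1 to 3 for the Rbpj-KO response, and stayed within 1.5 times the full count elsewhere. In 2i the Rbpj-KO count was 0 without RGd2 replicate 32 or Rbpj-KO replicate 28 (1 and 2 genes at an unadjusted p under 0.05). The Etv5-KO count was 2 without RGd2 replicate 31 and 0 without RGd2 replicate 32, Etv5-KO replicate 25 or 26 (0, 1 and 2 genes at an unadjusted p under 0.05). At N16h the Rbpj-KO count was 2 without Rbpj-KO replicate 19 or 21. The Rbpj-KO response had 1 call without any of the 6 libraries named with the Col13a1 interaction. Leaving out an Etv5-KO library at N16h leaves 1 sample, which is assumed to vary like the other groups. With the clonal line as a replicate block, run for the 4 comparisons within RGd2 and the 2 responses, the CHp2 count was 6, that of the Etv5-KO response 5, and the other 4 as reported. It was not run for mutants against RGd2, which share no line. Of single fold changes, leaving out a library ended 32 calls and added 8, with 1569 on the same side of the threshold. The lowest members rest on few counts, and a difference there was often not detectable at this depth.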
